A study of Mus musculus with 8 samples.

Results

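The miRNAs described here lie together in 1 intron of Clcn5, the gene of a chloride and proton exchanger of endosomes, on the mouse X chromosome. They were picked by name from the cluster of miR-362, miR-500, miR-501, miR-532 and miR-660, which was chosen because the log2 fold change of mmu-miR-362-5p in pressure-overloaded cardiomyocytes lay low among all miRNAs. The question was whether its neighbours followed. Of 9 listed mature miRNAs, 8 were found among the 697 miRNAs counted, namely mmu-miR-188-5p, mmu-miR-362-5p, mmu-miR-362-3p, mmu-miR-500-3p, mmu-miR-501-3p, mmu-miR-501-5p, mmu-miR-532-5p and mmu-miR-532-3p. In addition, 1 other arm of the same hairpins, mmu-miR-188-3p, was counted and is described beside them.

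Small RNAs were sequenced from isolated cardiomyocytes of 4 sham-operated mice (Sham1 to Sham4) and 4 mice with transverse aortic constriction (TAC1 to TAC4), an operation that narrows the aorta and loads the left ventricle. Male mice were operated at 2 months, no transgene or allele is named for either group, and the model was read 14 weeks after surgery, with cells released from the heart by Langendorff perfusion. Each library came from 1 of 4 portions of the myocytes of 1 heart, so p-values below measure the spread between these libraries. The libraries held 4005668 to 5392576 miRNA counts in sham and 5507169 to 7798943 in TAC.

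A miRNA gene is transcribed into a long primary RNA, from which Drosha cuts a hairpin and Dicer then cuts a duplex of a 5p and a 3p arm. Usually one arm is kept in an Argonaute protein, and bases 2 to 8 of that arm, the seed, select the mRNAs that it represses. Hairpins inside an intron can be made from the transcript of their host gene, and the hairpins of a cluster can come from one primary RNA while their mature arms are still kept or lost separately.

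In the GRCm38.p6 assembly (the mm10 build named in the submitters' processing notes) the RefSeq hairpins of the counted miRNAs all lie on the minus strand, as Clcn5 does, between chrX:7237683-7248497, a stretch of 10815 bases. Clcn5 itself spans chrX:7153810-7319358. Read in the direction of Clcn5 transcription, Mir532 (chrX:7248402-7248497) comes first, and Mir188 (chrX:7247989-7248056) follows after 345 bases. A gap of 5942 bases leads to Mir362 (chrX:7241982-7242046), Mir501 (chrX:7241243-7241351) begins 630 bases after it, and Mir500 (chrX:7237683-7237774) a further 3468 bases on. All 5 hairpins sit in the same intron of 103648 bases in each of the 3 Clcn5 transcripts that span them in the GENCODE annotation.

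The mature sequences of the arms, taken from RefSeq on the same build, show which of these neighbours could be read as near copies of each other. The seed is in capitals. Of the 9 counted arms, 8 were matched to a sequence. The 5p arm of miR-500, which was not among the miRNAs counted, is shown because it carries the seed of miR-362-5p.
miR-362-5p: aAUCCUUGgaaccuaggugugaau
miR-500-5p: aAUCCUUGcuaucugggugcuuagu
miR-501-5p: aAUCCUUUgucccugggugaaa
miR-188-5p: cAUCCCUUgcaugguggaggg
miR-362-3p: aACACACCuguucaaggauuca
miR-500-3p: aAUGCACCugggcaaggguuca
miR-501-3p: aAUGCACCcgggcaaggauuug
miR-188-3p: cUCCCACAugcaggguuugca
miR-532-3p: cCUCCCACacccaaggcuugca
The 3p arms of miR-500 and miR-501 share the seed AUGCACC and 18 of 22 bases. Counted from 1 at the 5′ end, they differ by C9U, A18G, U21C and G22A, with the base of miR-501-3p written first. The 3p arms of miR-362 and miR-500 match at 17 of 22 positions and at 5 of 7 seed bases, and those of miR-362 and miR-501 at 15 of 22 positions. The 5p arms of miR-362 and miR-501 match at 16 of 22 positions and at 6 of 7 seed bases. Tags of such close arms may be split between them by the counting, which is not given in detail in the sources used here. The levels of miR-362-3p, miR-500-3p and miR-501-3p beside each other, and of miR-501-5p beside miR-362-5p, are uncertain to that extent.

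**Figure D1:**
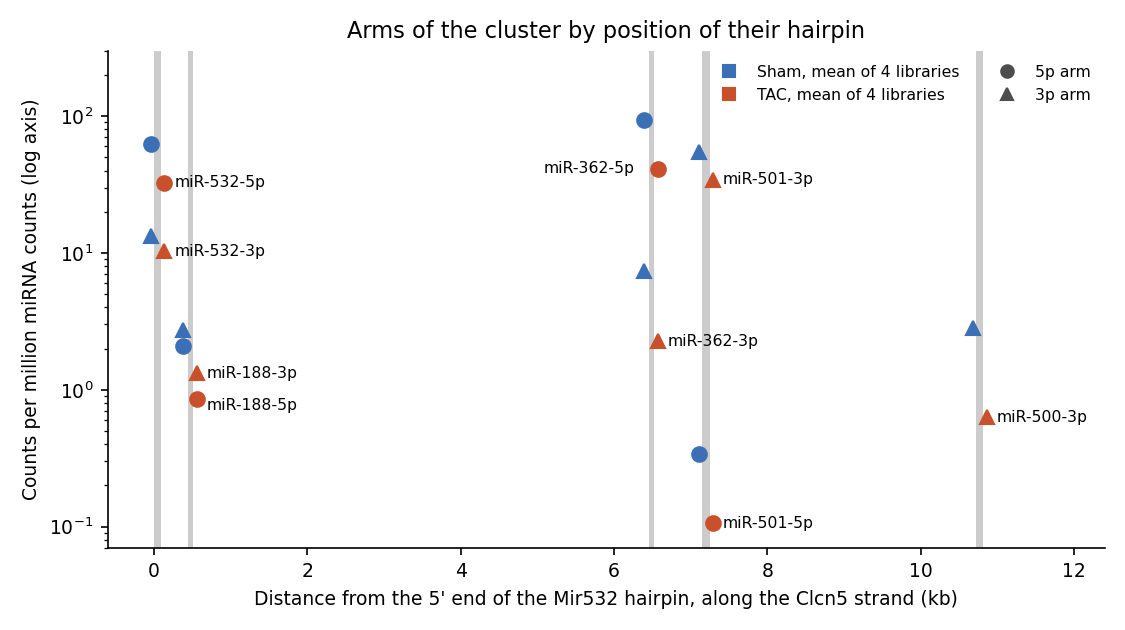
Mean level of each counted arm (vertical log axis, CPM over the miRNA total of the library, 4 libraries per group) against the position of its hairpin (horizontal axis, kb from the 5′ end of Mir532, grey bands are hairpins, with the points set to either side). Circles are 5p arms and triangles 3p arms, blue is sham and red is TAC; all 9 arms had a lower mean in TAC on this scale, before any test.

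First, the levels were compared within the cluster. Levels are in counts per 1000000 miRNA counts of the library (CPM). In sham cardiomyocytes the members, ordered by mean level, were miR-362-5p at 94.2 ± 19.3 CPM (SD, n = 4), miR-532-5p at 62.5 ± 22.2, miR-501-3p at 54.8 ± 15.7, miR-532-3p at 13.2 ± 6.80, miR-362-3p at 7.38 ± 6.0, miR-500-3p at 2.81 ± 0.803, miR-188-5p at 2.08 ± 0.738 and miR-501-5p at 0.337 ± 0.406. Among the 697 miRNAs this put miR-362-5p at rank 139 and miR-501-5p at rank 548. Of the 7 neighbouring pairs in this order, 5 were separated over the 8 libraries by an exact sign-flip test (two-sided, adjusted p of 0.0328 for miR-362-5p over miR-532-5p and 0.0273 for the other 4). The sham libraries that set this order were among the 8, and both groups were pooled, so the test gives no independent support. The pair with miR-362-5p also holds the TAC values behind the choice of the cluster. miR-532-5p and miR-501-3p were not separated (mean log2 ratio of 0.031 ± 0.45, SD over 8 libraries, exact adjusted p = 0.852), and neither were miR-500-3p and miR-188-5p (0.12 ± 1.22, exact adjusted p = 0.852). The most abundant arm was therefore a 5p arm for Mir362 and Mir532 and a 3p arm for Mir501. In the TAC means 5 of these 7 pairs kept their order.

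Next, the cluster was compared between the groups as a whole. The 8 members summed to 297, 264, 215 and 173 CPM in Sham1 to Sham4 and to 116, 125.7, 116 and 131 CPM in TAC1 to TAC4. Every TAC library thus lay below every sham library, with means of 237 ± 54.8 against 122 ± 7.47 CPM (SD, n = 4 each) and a log2 ratio of -0.96. The 7 neighbours without miR-362-5p gave 143.1 ± 37.7 against 81.1 ± 8.16 CPM and a log2 ratio of -0.82, again without overlap. This scale does not stand alone, because the study sets its libraries on miR-126a-3p and miR-19b-3p, and by library total both had all 4 TAC values under the sham range (39017 ± 10588 against 22483 ± 1313 CPM, and 213 ± 36.4 against 107 ± 21.4 CPM). Scaled to those references, with TAC totals multiplied by 0.537, the summed members were at 237 ± 54.8 and 228 ± 13.9 CPM in the 2 groups, a log2 ratio of -0.058, and the groups overlapped. Without Sham1 this log2 ratio was 0.18, and over all libraries left out singly it ran from -0.19 to 0.18. No test was run on these sums, since the members were chosen with the result for miR-362-5p known.

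**Figure D2:**
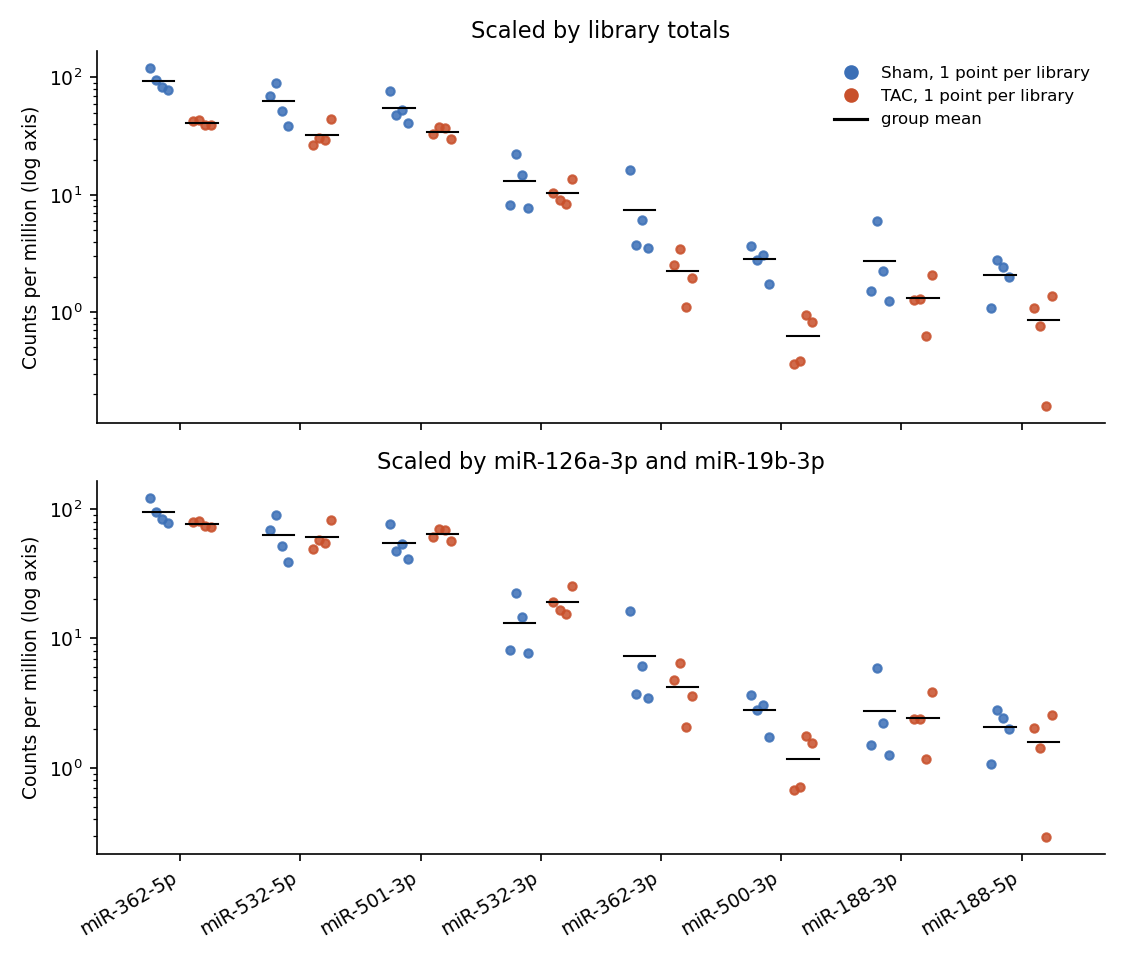
Level of each arm in every library (vertical log axis, CPM; blue sham, red TAC, black lines group means, n = 4 each), scaled by library totals above and by miR-126a-3p and miR-19b-3p below. By library totals the TAC points of miR-362-5p (39.3 to 43.3) lie under all sham points (77.6 to 121), while on the reference scale they reach into the low end of the sham range; miR-501-5p, at 0 in 2 libraries, is left off.

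miR-362-5p, the arm behind the choice of the cluster, was counted 561, 509, 410 and 311 times in Sham1 to Sham4 and 236, 338, 250 and 284 times in TAC1 to TAC4. By library total these were 121, 94.4, 83.6 and 77.6 CPM against 42.9, 43.3, 39.4 and 39.3 CPM, so that the TAC libraries lay close together and under the whole sham range. Its log2 fold change was -1.19 by library totals, -0.98 with TMM, the trimmed-mean scaling of edgeR, and -0.29 (SE 0.17) with the reference scaling. The last value rested on Sham1, without which it was -0.033. These are descriptions without a test. On each of the 3 scales it stood ninth from the lowest among the miRNAs whose mean exceeded 100 counts, 0.90, 0.89 and 0.90 log2 units under the median of all, which itself was at -0.29, -0.082 and 0.61.

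The 2 abundant neighbours, miR-501-3p and miR-532-5p, lay on the same side of that median but less far from it. miR-501-3p, the main arm of the hairpin 630 bases beyond Mir362, was at 77.1, 47.7, 53.2 and 41.2 CPM in Sham1 to Sham4 and at 32.7, 37.8, 36.7 and 30.2 CPM in TAC1 to TAC4, without overlap. miR-532-5p, from the first hairpin of the cluster, was at 69.4, 89.9, 52.0 and 38.7 CPM in sham and at 26.3, 30.8, 29.3 and 44 CPM in TAC, where TAC4 reached above Sham4. By this scale 3 of the 7 neighbours, miR-362-3p, miR-500-3p and miR-501-3p, had all TAC libraries under all sham libraries, as had 12.9% of the 695 miRNAs with a count.

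The study sets its counts on the 2 references, and here this was applied as 1 factor for all TAC libraries. Neither of these 2 neighbours passed the test on that scale. The log2 fold change (edgeR, TAC over sham) was 0.22 for miR-501-3p (SE 0.21, adjusted p = 0.372) and -0.041 for miR-532-5p (SE 0.28, adjusted p = 0.903). On this scale 63.7% of the miRNAs tested were higher in TAC at an adjusted p below 0.05 and 0.897% were lower, with a median log2 fold change of 0.61 over all of them, so that miR-501-3p and miR-532-5p stood 0.38 and 0.65 below the median without a change of their own that passed. Sham1 decided the first of them: without it, miR-501-3p was at 0.55 with an adjusted p of 0.0170, higher in TAC, as were 73.5% of the miRNAs tested in that fit, whose median was 0.73. Sham1 was also the sham library with the lowest miR-126a-3p (25759 CPM, the other 3 between 36421 and 50698).

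The direction of miR-501-3p turned with the other scalings, and miR-532-5p lay further below 0. With TMM the log2 fold changes were -0.46 for miR-501-3p (SE 0.21, adjusted p = 0.181) and -0.72 for miR-532-5p (SE 0.26, adjusted p = 0.0977), and 8.52% of the miRNAs tested were lower at an adjusted p below 0.05. By library totals both passed, at -0.67 (SE 0.21, adjusted p = 0.0489) and -0.94 (SE 0.28, adjusted p = 0.0394), against 20.6% of all miRNAs lower. Those 2 calls were not stable, since leaving out 1 library at a time lost both of them without Sham1, Sham2, Sham3, TAC1, TAC2 or TAC3, and that of miR-501-3p without TAC4. Their log2 fold changes stayed between -0.79 and -0.46 and between -1.12 and -0.71 in those fits. In rank, miR-532-5p stood 19th from the lowest on all 3 scales and miR-501-3p 39th or 40th. At an unadjusted p below 0.05, neither counted on the reference scale, miR-532-5p alone did with TMM, as with DESeq2, and both did by library totals. The share of all miRNAs at that unadjusted threshold was not worked out.

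The minor arms of the abundant hairpins were fitted among the 410 miRNAs that averaged 10 counts or more. miR-362-3p, the other arm of the miR-362 hairpin, was at 16.2, 3.71, 6.11 and 3.50 CPM in sham and at 2.54, 3.46, 1.10 and 1.94 CPM in TAC. Sham1 stood far above the other 3 sham libraries, and Sham4 and TAC2 nearly met. Its log2 fold change was -0.80 on the reference scale (SE 0.54, adjusted p = 0.248), -1.38 with TMM (adjusted p = 0.143) and -1.69 by library totals (adjusted p = 0.0616), the sixth lowest of 410 on each scale. Without Sham1 its value on the reference scale was 0.045 instead, and by library totals it passed when Sham2 or Sham4 was left out (adjusted p = 0.0457 and 0.0477).

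miR-532-3p lay close to the median of all miRNAs instead. It was at 8.21, 22.3, 14.7 and 7.74 CPM in sham and at 10.4, 8.98, 8.36 and 13.6 CPM in TAC, with the TAC values inside the sham range. Its log2 fold change was 0.53 on the reference scale (SE 0.35, adjusted p = 0.239), -0.043 with TMM (adjusted p = 0.957) and -0.36 by library totals (adjusted p = 0.498), within 0.06 of the median of all 410 miRNAs each time. miR-188-3p, counted 4 to 32 times per library, was at -0.17 on the reference scale (SE 0.55, adjusted p = 0.809), -0.74 with TMM (adjusted p = 0.442) and -1.06 by library totals (adjusted p = 0.225). Of these 410 miRNAs, 42.7% were higher and 0.488% lower on the reference scale, 3.17% were lower with TMM and 12.7% by library totals. None of the 5 arms in that fit other than miR-362-5p passed on the reference scale or with TMM, and miR-532-5p alone passed by library totals (adjusted p = 0.0490). At an unadjusted p below 0.05 the count was 0 of 5 on the reference scale and 2 of 5, miR-362-3p and miR-532-5p, with TMM and with DESeq2. By library totals it was 3 of 5, with miR-501-3p as well. The share of all miRNAs at that unadjusted threshold was not worked out, so these counts cannot be called unusual.

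**Figure D3:**
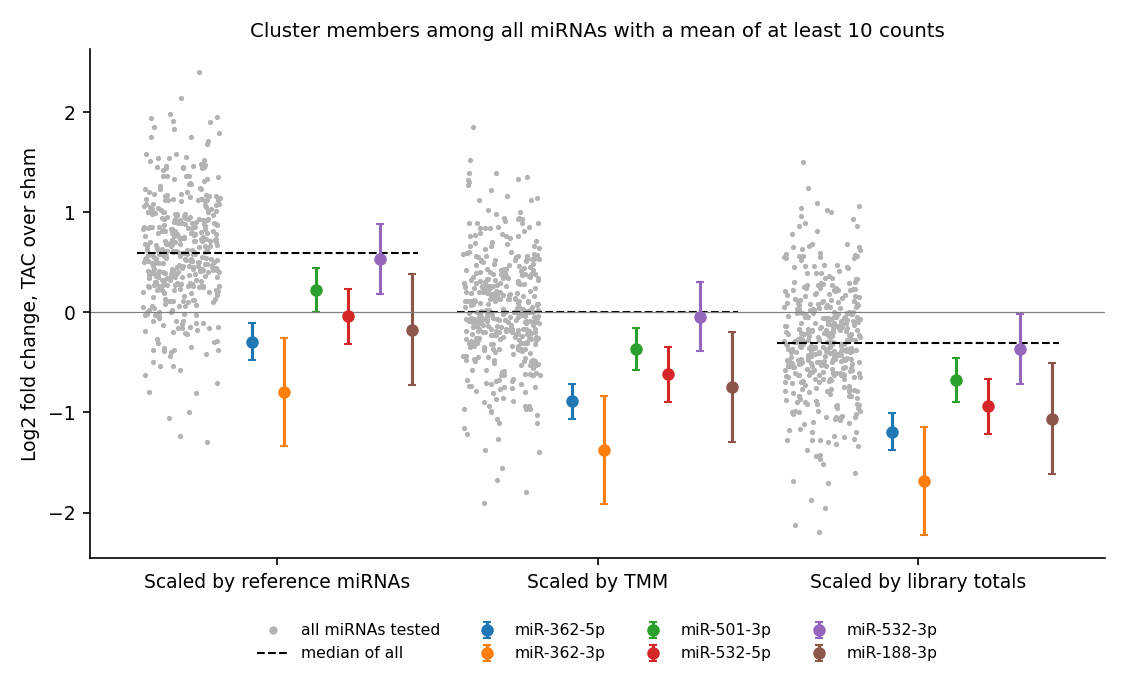
Log2 fold change of TAC over sham (vertical axis) for the 6 cluster arms that averaged 10 counts or more (coloured points with SE from edgeR, n = 4 each) beside all 410 miRNAs (grey) under the 3 scalings. The dashed line is the median of all, at 0.59, 0.0015 and -0.31 from left to right; miR-362-3p lies farthest under it and miR-532-3p almost on it, while the zero line moves with the scaling.

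The remaining 3 members were sparse, and the values below rest on few counts. miR-500-3p, the arm that shares its seed with miR-501-3p, was counted 17, 15, 15 and 7 times in Sham1 to Sham4 and 2, 3, 6 and 6 times in TAC1 to TAC4. Over each group this was 54 counts against 17, or 2.85 against 0.633 CPM, a ratio of 0.222 with an exact interval of 0.121 to 0.389 (95%, from counting error alone). In the edgeR fit over all 695 miRNAs its log2 fold change was -1.24 on the reference scale (SE 0.50, adjusted p = 0.0844), -1.76 with TMM (SE 0.49, adjusted p = 0.0582) and -2.12 by library totals (SE 0.49, adjusted p = 0.0167), the last a fall that passed. How stable that call is was not tested, since this fit was not repeated with single libraries left out or with DESeq2. In that fit 0.288%, 0.863% and 5.61% of miRNAs were lower at an adjusted p below 0.05. Hence miR-500-3p was the member with the lowest log2 fold change on each of the 3 scales in that fit.

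miR-188-5p was counted 5, 15, 12 and 8 times in sham and 6, 6, 1 and 10 times in TAC, with a ratio of summed CPM of 0.405 (exact interval 0.232 to 0.693). Its log2 fold change was -0.39 on the reference scale (SE 0.57, adjusted p = 0.659) and -1.27 by library totals (SE 0.56, adjusted p = 0.204). miR-501-5p was nearly absent, with 7 counts in sham and 3 in TAC altogether, a ratio of 0.302 with an interval of 0.0504 to 1.32. It was at 0 in Sham4 and TAC1, where the depth allows up to 0.749 and 0.545 CPM (3 counts). No difference between the groups was detectable for it at this depth.

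Ratios of arms and members within a library need no scaling between libraries, and they were read next. For miR-532 the 5p arm was counted 8.45, 4.04, 3.54 and 5.0 times as often as the 3p arm in Sham1 to Sham4 and 2.54, 3.43, 3.51 and 3.24 times as often in TAC1 to TAC4. All TAC ratios were lower, though Sham3 and TAC3 nearly touched. The mean log2 ratio was 2.30 ± 0.55 among sham libraries and 1.65 ± 0.21 among TAC libraries (SD, 4 values a group), a difference of -0.65. The two-sided exact permutation test over 70 arrangements gave p = 0.0286, the smallest it can give, and 0.0571 after adjustment for the 2 hairpins tested, which does not pass. At this group size the adjusted p of miR-532 could fall below 0.05 only if miR-501 also reached the smallest p. The miR-501 ratio rests on 0 to 5 counts of its 5p arm per library, so the adjusted test cannot decide for miR-532. Sham1 gave the highest ratio, and without it the difference was -0.39. For miR-501 the log2 ratio of 5p over 3p was -7.32 ± 1.24 in sham and -7.65 ± 0.60 in TAC (exact p = 0.771). The ratios of miR-362 (3.93 ± 0.78 and 4.25 ± 0.61) and of miR-188 (-0.19 ± 0.73 and -0.76 ± 0.59), given without a test, overlapped.

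Beside its seed partner, miR-500-3p stood at 4.76%, 5.84%, 5.75% and 4.24% of the miR-501-3p counts in Sham1 to Sham4 and at 1.11%, 1.02%, 2.58% and 2.75% in TAC1 to TAC4. The groups did not overlap, at 5.15% ± 0.775 and 1.86% ± 0.927 (SD, n = 4 each), and this ratio was singled out after its values were seen and carries no test. Within the cluster's counts, the share of miR-362-5p was 39.7% ± 4.09 in sham and 33.5% ± 2.92 in TAC, while miR-501-3p went from 22.9% ± 3.63 to 27.9% ± 3.83 and miR-532-5p from 25.7% ± 5.11 to 26.2% ± 4.67, all with overlap. The share of miR-500-3p was the one without overlap (1.17% ± 0.188 and 0.511% ± 0.249).

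The hairpins 5′ of the long gap, Mir532 and Mir188, gave a share of the cluster that differed between libraries. Their 4 arms made up 26.8%, 44.7%, 32.8% and 28.6% of all cluster counts in Sham1 to Sham4 and 33.2%, 32.9%, 32.9% and 45.7% in TAC1 to TAC4. Sham2 and TAC4 stood high, and the group means of 33.2% ± 8.05 and 36.2% ± 6.36 (SD, n = 4 each) overlapped. The same 2 libraries held the highest sums of epithelial miRNAs of their groups (447 CPM in Sham2 and 1545 CPM in TAC4, the other 6 between 252 and 360) and of pancreatic miRNAs (33.0 and 88.9 CPM, the others between 14.1 and 27.2). The part of those cells in the share was not tested.

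**Figure D4:**
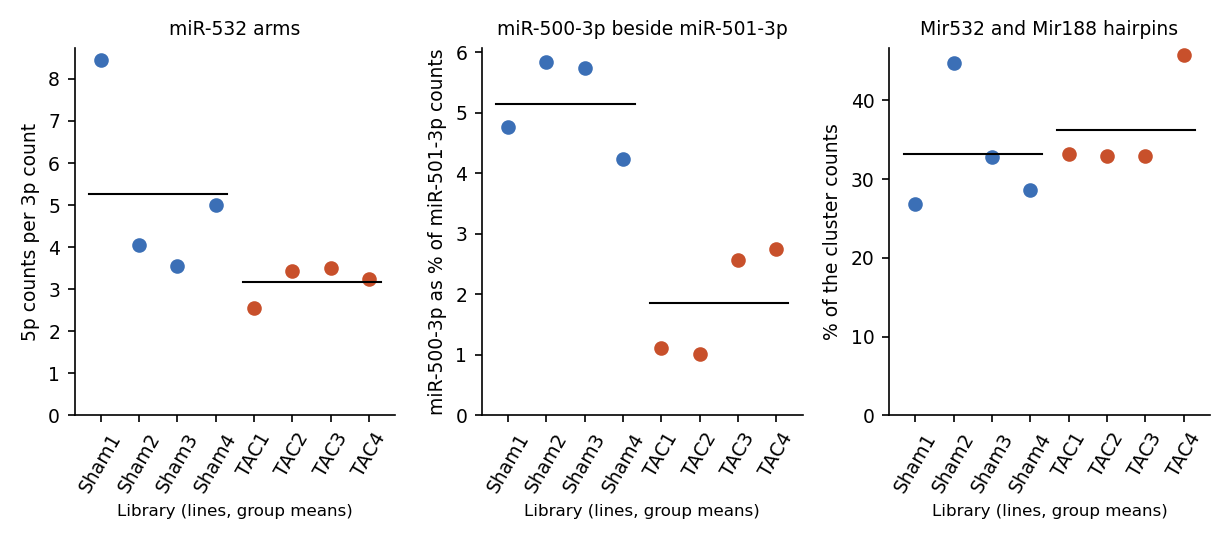
Ratios within each library (blue sham, red TAC, lines group means, n = 4 each), from left to right counts of miR-532-5p per count of miR-532-3p, miR-500-3p as a percentage of miR-501-3p, and the share of cluster counts from the Mir532 and Mir188 hairpins. The first 2 are lower in all 4 TAC libraries than in any sham library, whereas the third is high in Sham2 (44.7%) and TAC4 (45.7%) alone.

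To place the pattern of miR-362-5p, its profile over the 8 libraries was set beside those of the other miRNAs whose mean exceeded 100 counts. Likeness was the mean absolute difference of log2(CPM + 1) by library total after centring each miRNA, a measure that mainly follows the step between the groups. The nearest were miR-450a-5p (0.104), miR-126a-5p (0.132), miR-101a-3p (0.152), miR-199b-5p (0.195) and miR-322-5p (0.195). All 5 were lower in every TAC library by library total, for example miR-450a-5p at 253 ± 56.6 CPM against 122 ± 13.3 CPM (SD, n = 4 each). Their choice by likeness on the same values favours this, and 12.9% of the 695 miRNAs with a count lay so. The cluster's own miR-501-3p came 16th (0.264) and miR-532-5p 27th (0.292), against a median of 0.483 over all. By this measure both neighbours stood behind miRNAs from elsewhere in the genome, among them the endothelial miR-126a-5p, and no test was run on these ranks.

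Of these, miR-450a-5p and miR-322-5p come from another X-linked cluster. Since both were named for a step between the groups like that of miR-362-5p, their calls by library totals are no separate support. The other X-linked miRNAs were counted as a group that holds both. Of 15 with a mean above 100 counts, 5 were lower and none higher by library totals at an adjusted p below 0.05 (20.6% of all miRNAs tested fell there, with median log2 fold changes of -0.49 for the 15 and -0.29 for all). With TMM 4 were lower and none higher (8.52% of all were lower, medians of -0.28 and -0.082). On the reference scale none were lower and 6 higher (63.7% of all were higher, medians of 0.41 and 0.61). At an unadjusted p below 0.05 the edgeR count was also 0 lower and 6 higher, without a share of all miRNAs to set beside it. By library totals the lowest of those that passed in edgeR were miR-503-5p at -1.20 (SE 0.23, adjusted p = 0.00649), miR-450a-5p at -1.05 (SE 0.18, adjusted p = 0.00486) and miR-322-5p at -0.93 (SE 0.14, adjusted p = 0.00241). All 5 that passed were miRNAs of 1 cluster that is known from muscle differentiation, and no X-linked miRNA from outside it passed. The count of 5 is therefore no trait of X-linked miRNAs in general. On the reference scale miR-503-5p, miR-450a-5p and miR-322-5p were at -0.30, -0.15 and -0.030. In these libraries 9 of the 15 lay below the median of all miRNAs on each scale.

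The libraries carried the miRNAs that define cardiomyocytes. The 5 listed (miR-1a, miR-133a, miR-208a, miR-208b and miR-499) summed to 160712 to 198133 CPM in sham and 194455 to 245941 in TAC, and none was at 0. Markers of other cells differed between the libraries as well, by library total. The 2 endothelial arms of miR-126a summed to 49248 to 72051 CPM in sham and 29274 to 34557 in TAC, and the 3 erythroid miRNAs to 418 to 1503 and 43.8 to 550. The 5 leukocyte miRNAs summed to 1305 to 2455 and 1051 to 1448, and the 6 of fibroblasts and smooth muscle to 44082 to 51537 and 38037 to 46273. Of these 4 sums, the endothelial one was without overlap between the groups and the other 3 overlapped. None of these markers was at 0 in all libraries. The part of such cells in the values of the cluster was not tested, and in bulk samples fewer cells of a type and less RNA per cell cannot be told apart.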

How the data were processed

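The deposited tables hold raw counts of sequence tags for each mature miRNA, as the authors made them from cleaned small RNA reads. The submitters' processing notes name the mm10 build and StringTie 1.3.1, and the aligner, the miRNA reference and the handling of tags that match several miRNAs are not given in the sources used here. The members and lists were chosen with earlier results of these data known, so no p is given for miR-362-5p or for sums of members.

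Groups were taken from the sample labels, and no library was a copy of another. Counts were fitted with edgeR 4.0.16 (R 4.3.3, quasi-likelihood test, group as the only term) and adjusted by Benjamini-Hochberg over all miRNAs tested, with a mean above 100 counts, with a mean of at least 10, or with any count. Library sizes were miRNA totals, multiplied in TAC by 0.537, the factor by which mean CPM of miR-126a-3p and miR-19b-3p differed in TAC (geometric mean of both). TMM, unscaled totals, DESeq2 1.42.0 size factors, a separate reference factor for each library, each reference alone, other pseudocounts, a replicate block and each library left out in turn were alternatives. The fit over miRNAs with any count was run with the reference scaling, TMM and unscaled totals only. A call needed an adjusted p below 0.05. Ratios of arms used a pseudocount of 0.5 counts. Named miRNAs were the members, the other arms of their hairpins, the 2 references, the 5 miRNAs nearest to miR-362-5p and up to 3 other X-linked miRNAs called in each direction by library totals at a fold change above 1.7. The biological coefficient of variation was 0.255, and intervals cover counting error alone. Python 3.11.15 and scipy 1.17.1 made the other values.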

Additional observations from a re-analysis of the deposited data

How the results depend on the processing

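The scaling changed the sign of 3 neighbours. The log2 fold change of miR-501-3p was -0.46 with TMM, -0.67 by library totals and -0.42 with DESeq2 size factors, and that of miR-532-3p was -0.043, -0.36 and -0.067, where the reference scale gave positive values. With miR-19b-3p as the only reference, miR-532-5p was at 0.061, against -0.041. With a reference factor for each library, miR-501-3p was at 0.15 and miR-532-5p at -0.082 (edgeR adjusted p = 0.716 and 0.842). By library totals 2 of the 2 neighbours with a mean above 100 counts passed as lower in TAC, and 1 of 5 in the wider fit. Of all miRNAs, 20.6% and 12.7% were lower there. On the reference scale 0 passed in either fit, where 63.7% and 42.7% of all were higher and 0.897% and 0.488% lower. The log2 ratio of the summed members was -0.96 by library totals and -0.74 with TMM. With a pseudocount of 10 CPM, 3 of the 5 miRNAs nearest to miR-362-5p were shared. Leaving out 1 library at a time gave -0.20 to 0.13 for miR-532-5p, -1.12 to 0.045 for miR-362-3p, -0.44 to 0.46 for miR-188-3p, 0 to 1 neighbours passing on the reference scale in either fit (by library totals 0 to 2 and, in the wider fit, 0 to 3, the latter without Sham4), and -0.68 to 0.26 for the arm ratio of miR-501. For miR-532-3p these settings, added after seeing the data, gave -0.24 to 0.27 with TMM and -0.55 to 0.011 by library totals. The cause of these shifts was not tested. Same-numbered sham and TAC libraries had correlations of 0.17, -0.37, 0.31 and -0.22, and differently numbered ones ran from -0.19 to 0.42. The study speaks of pairs of sham and TAC mice. Whether the numbers mark such pairs cannot be decided from so few correlations. With the replicate block the log2 fold changes were -0.27 for miR-362-5p, 0.26 for miR-501-3p and -0.0083 for miR-532-5p, miR-532-3p moved to 0.035 with TMM, and no neighbour passed. Members under 10 counts were limited by depth.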
